A study of Mus musculus with 21 samples.

Results

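The liver response to lipopolysaccharide (LPS), which Gram-negative bacteria carry in their outer membrane, was described from 1 liver RNA-seq library of a wild-type (WT) C57BL/6J mouse given 30 mg/kg LPS and 1 of a WT C57BL/6J mouse given PBS, both intraperitoneally. The members are all 5298 genes that the authors' liver values list, out of 35622 gene symbols over all tables of the series, and the pair is 2 of 21 samples. The liver values list only genes at least 2-fold apart between these 2 libraries, so the pair itself chose the genes. Its differences are given as a description, with no test and no replicate. The series has 5 further liver libraries, each the only one of its group: WT given 30 mg/kg LPS with 100 mg/kg CTM, a compound named here as the labels give it, WT given LPS after liver macrophage depletion, WT given LPS without depletion (no dose is labelled for the depletion pair), and TG2-KO mice given 30 mg/kg LPS or PBS. TG2-KO mice lack transglutaminase 2, the product of Tgm2, and carry the same C57BL/6J background. The labels give no sex, age, time after injection, depletion method or way the knockout was made, and do not say whether a library came from 1 animal. RNA of the WT LPS, WT PBS and WT LPS plus CTM livers shares 1 extraction date, the depletion pair another, and the TG2-KO pair yet another, so genotype and extraction date cannot be told apart. The series also holds the macrophage-like mouse line RAW264.7 at 12 h and 24 h, with 2 libraries per group. Only its WT cells given LPS or PBS are used here. Vimentin-knockout (Vim-KO) cells at 12 h and WT cells given LPS plus CTM at 24 h are left out.

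LPS is bound by LPS-binding protein and CD14 and signals through Toll-like receptor 4, which activates NF-kB and, through interferon regulatory factors, type I interferon. In the liver, Kupffer cells, which are the resident macrophages, and endothelial cells sense LPS directly, and the cytokines they release act on hepatocytes. Hepatocytes then make acute phase proteins, largely through STAT3, C/EBP and NF-kB, and are known to lower many genes of metabolism, bile acid transport and detoxification.

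The values are TPM, a measure of transcript abundance scaled by gene length to a fixed total per library. Read depth is not kept in TPM, so the depth of each library and the precision that depth sets are unknown. The listed genes sum to between 153180 and 336332 TPM over the 7 livers. In WT LPS liver the genes that were not listed held 695456 TPM, against 846820 TPM in WT PBS liver, a ratio of 1.22 of PBS over LPS, so part of each lower value moves with the share that the highest genes take. Differences are of log2(TPM + 1), LPS minus PBS, in which adding 1 shrinks the difference of genes at low TPM. The tissue label could be read from listed hepatocyte products, since Hamp, Fgb, Cyp2e1 and Rbp4 each stood above 1000 TPM in both libraries. A bulk library cannot tell fewer cells of a type from less RNA per cell.

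Of the listed genes, 1459 (27.5%) were higher and 3839 (72.5%) lower in the LPS library. The higher genes were fewer but further apart: their median difference was 1.44, against -1.14 for the lower genes. A difference of at least 1 was found for 1091 higher genes (20.6% of those listed) and for 2453 lower genes (46.3%). With the pair scaled to equal TPM of the genes not listed, which moves every gene up by 0.28 on the log2(TPM) scale, these counts were 1240 and 1767. A difference of at least 3, which is 8-fold in TPM + 1, was found for 214 higher and 93 lower genes. The higher genes summed to 263835 TPM in the LPS library and 39834 TPM in the PBS library. The lower genes summed to 40709 TPM with LPS and 113346 TPM with PBS. The share of higher genes differed with level and was largest at the top: it was 24.1% of the 663 genes under 1 TPM in both libraries, 22% of the 2546 genes whose higher library held 1 to 10 TPM, 32.3% of 1724 genes between 10 and 100 TPM, 47.8% of 324 genes between 100 and 1000 TPM, and 68.3% (28 of 41 genes) above. At the 2-fold limit of the listing stood Rab21 (19.98 TPM with LPS, 9.99 TPM with PBS) among higher genes and Aadat (46.5 TPM with LPS, 93.1 TPM with PBS) among lower genes. The plot of the pair shows this shape.

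**Figure D1:**
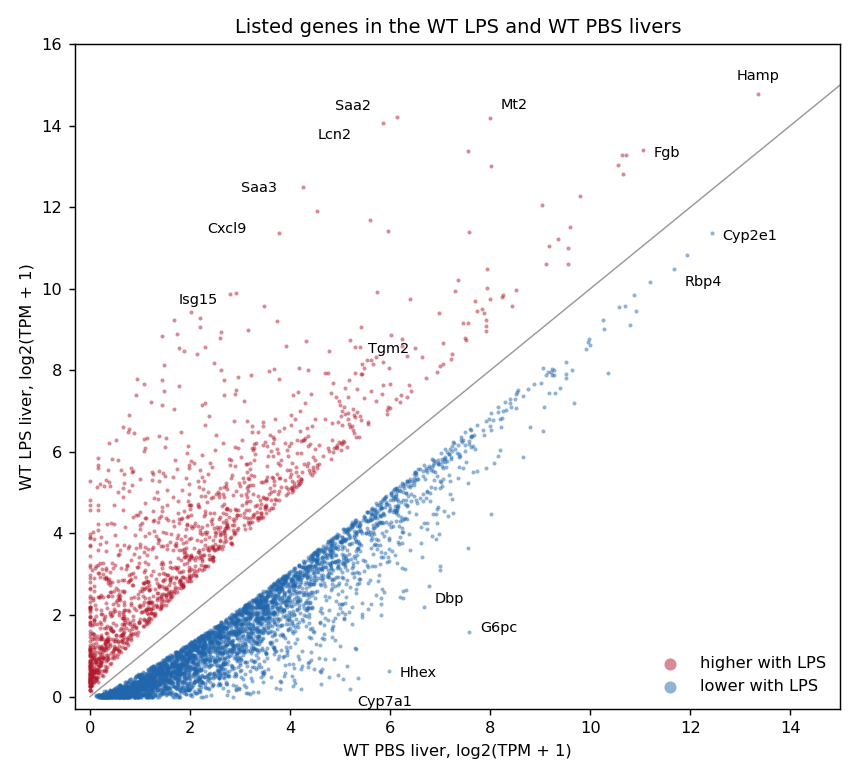
Each point is 1 of the 5298 listed genes, with log2(TPM + 1) in the WT LPS liver on the vertical axis and in the WT PBS liver on the horizontal axis, and the grey line marks equal values. The empty band around the line is the 2-fold limit of the listing, the 1459 genes above it reach higher levels, and the 3839 genes below it are mostly at low levels.

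The targeted gene of the TG2-KO livers was read first. Tgm2, which encodes the protein crosslinking enzyme transglutaminase 2, stood at 15.5 TPM in TG2-KO LPS liver and 0.74 TPM in TG2-KO PBS liver, against 425 TPM in WT LPS liver and 35.7 TPM in WT PBS liver. Tgm2 was therefore itself a gene with more RNA in the WT LPS library, by 3.54 on the log2 scale, and both TG2-KO livers were under both WT livers. Vim, the vimentin gene in the title of the study, is not listed in the liver values and has no value here.

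Of the 10 highest differences among genes with at least 10 TPM, 9 belonged to Saa3, Lcn2, Saa2, Cxcl9, Serpina3f, Cxcl1, Saa1, Il1rn and Gbp2. Saa3, an acute phase serum amyloid A protein that macrophages also make, stood at 5776 TPM in WT LPS, 4614 TPM in WT LPS plus CTM, 12543 TPM in depleted WT LPS, 5554 TPM in non-depleted WT LPS and 3277 TPM in TG2-KO LPS liver, against 18.1 TPM in WT PBS and 6.46 TPM in TG2-KO PBS liver. All 5 LPS livers were far above both PBS livers, and the ratio within the WT pair was 319.8. Lcn2 encodes lipocalin 2, which withholds iron from bacteria. It held 17187, 18312, 25201, 12752 and 15446 TPM in the same 5 LPS livers, against 56.9 TPM in WT PBS and 589 TPM in TG2-KO PBS liver. The groups did not overlap, but the TG2-KO PBS liver stood well above the WT PBS liver. Cxcl9, a chemokine induced by interferon gamma that draws T cells, held 2636, 1621, 323, 1636 and 1629 TPM in the LPS livers, against 12.7 TPM in WT PBS and 3.16 TPM in TG2-KO PBS liver. The depleted liver was the lowest of the LPS livers for this gene and still above both PBS livers. Cxcl1, a neutrophil chemoattractant, held 683, 808, 198, 259.9 and 449.7 TPM in the LPS livers, against 3.04 TPM in WT PBS and 85.5 TPM in TG2-KO PBS liver. Serpina3f is a serine protease inhibitor of a mouse gene cluster related to antichymotrypsin, and held 602 TPM in WT LPS and 2.20 TPM in WT PBS liver, but 86.9 TPM in TG2-KO LPS and 2.46 TPM in TG2-KO PBS liver. Il1rn, the interleukin 1 receptor antagonist, held 469.8 TPM in WT LPS and 2.34 TPM in WT PBS liver. Gbp2, an interferon-induced guanylate-binding protein that attacks vacuoles of intracellular microbes, held 624, 574, 137, 464 and 596 TPM in the LPS livers, against 3.56 TPM in WT PBS and 2.57 TPM in TG2-KO PBS liver. Every LPS liver was above both PBS livers for Il1rn and Gbp2, as the grid of these genes shows.

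The 10 lowest differences belonged to G6pc, Hhex, Cyp7a1, G0s2, Paqr7, Dbp, Marveld1, Nr0b2, Kcnk5 and Hfe2. G6pc encodes the catalytic subunit of glucose-6-phosphatase, the last step by which the liver releases glucose. It held 2.00 TPM in WT LPS, 1.33 TPM in WT LPS plus CTM, 26.6 TPM in depleted WT LPS, 2.47 TPM in non-depleted WT LPS and 3.47 TPM in TG2-KO LPS liver, against 189.9 TPM in WT PBS and 37.3 TPM in TG2-KO PBS liver. All 5 LPS livers were below both PBS livers, with the depleted liver nearest to them. Cyp7a1, the rate-limiting enzyme of bile acid synthesis, held 0.13, 0.11, 0.14, 3.59 and 0.39 TPM in the LPS livers, against 35.8 TPM in WT PBS and 21.9 TPM in TG2-KO PBS liver. Hhex is a homeobox gene of liver and endothelial development. It held 0.54 TPM in WT LPS and 61.8 TPM in WT PBS liver, and 4.78 TPM in TG2-KO LPS and 61.6 TPM in TG2-KO PBS liver. G0s2, an inhibitor of triglyceride breakdown by adipose triglyceride lipase, held 0.38 TPM in WT LPS and 40.2 TPM in WT PBS liver, but 29.1 TPM in the depleted WT LPS liver, above the 25.4 TPM of TG2-KO PBS liver. Hfe2 encodes hemojuvelin, a co-receptor upstream of hepcidin, and was also higher in the depleted LPS liver (19.9 TPM) than in TG2-KO PBS liver (15.98 TPM). So was Nr0b2, which encodes the nuclear receptor SHP, a repressor induced by bile acids, at 16.7 TPM in the depleted LPS liver and 13.9 TPM in TG2-KO PBS liver. Paqr7, a membrane progestin receptor, held 0.35 TPM in WT LPS and 32.2 TPM in WT PBS liver, and Kcnk5, a potassium channel, 0.23 TPM with LPS and 23.6 TPM with PBS. For the 7 genes other than G0s2, Hfe2 and Nr0b2, no LPS liver reached either PBS liver.

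**Figure D2:**
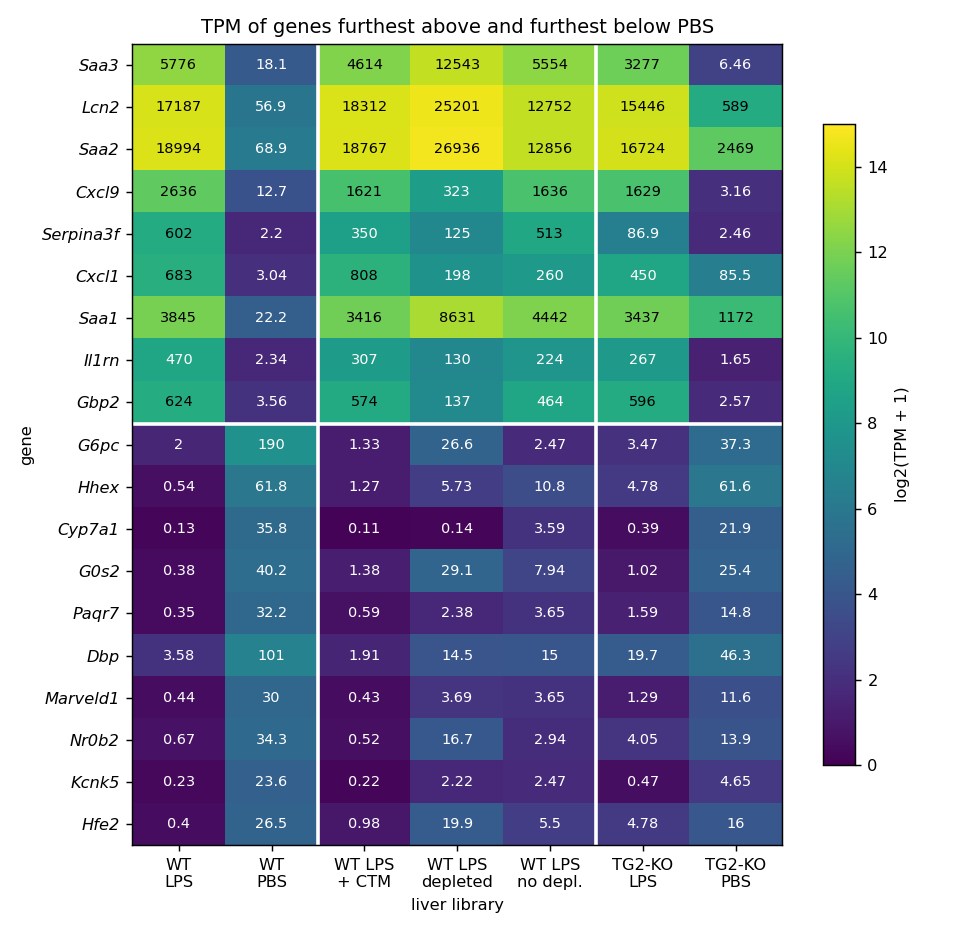
The number in each cell is TPM of 1 gene in 1 liver library and the colour is log2(TPM + 1), with 9 of the 10 genes furthest above PBS in the WT pair in the upper block and the 10 furthest below in the lower block. Upper genes are bright in all 5 LPS livers, and Lcn2, Saa2, Cxcl1 and Saa1 are brighter in the TG2-KO PBS than in the WT PBS liver.

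Promoter sequence was set beside the 10 highest and 10 lowest genes because they move furthest apart in the pair. Of the 20 genes, 17 are in the RefSeq promoter table used (GRCm38.p6, 250 bases before to 50 bases after the start). Both strands were searched for 7 short motifs known from factors of inflammation, hepatocytes and the clock: NF-kB (GGGNNTTTC), interferon response (GAAANNGAA), STAT (TTCCNGGAA), C/EBP (TTGCGNAA), HNF1 (GTTAATNAT), HNF4 (CAAAGTCCA) and D-box (TTATGNAA). At least 1 motif was present for 6 of the 9 highest genes found in the table and for 3 of the 8 lowest. These counts stand without the share of all genes that hold at least 1 of the 7 motifs, so no excess can be read from them. The windows of 5 of the genes with a match are printed to show the letters, 5′ to 3′ on the strand of the gene, with each match in capitals. In Cxcl9 the capitals are an interferon response match followed by an NF-kB match, in Gbp2 an NF-kB match followed by an interferon response match nearer the start, in Cxcl1 a pair of NF-kB matches, in Saa3 an interferon response match followed by a D-box match, and in G6pc an HNF1 match. These are matches of letters, and no binding was measured.
Cxcl9, chr5:92328030-92328329, minus strand: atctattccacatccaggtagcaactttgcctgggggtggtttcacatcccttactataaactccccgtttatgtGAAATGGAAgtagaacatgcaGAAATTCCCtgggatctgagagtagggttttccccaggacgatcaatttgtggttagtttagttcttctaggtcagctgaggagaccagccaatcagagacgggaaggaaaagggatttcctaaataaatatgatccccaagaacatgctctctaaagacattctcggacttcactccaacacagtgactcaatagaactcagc
Gbp2, chr3:142620413-142620712, plus strand: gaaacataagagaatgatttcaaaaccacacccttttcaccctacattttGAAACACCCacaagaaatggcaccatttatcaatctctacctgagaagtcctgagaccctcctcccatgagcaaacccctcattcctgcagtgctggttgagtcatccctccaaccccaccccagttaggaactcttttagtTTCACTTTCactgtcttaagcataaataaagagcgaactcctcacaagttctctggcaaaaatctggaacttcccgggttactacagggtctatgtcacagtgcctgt
Cxcl1, chr5:90890995-90891294, plus strand: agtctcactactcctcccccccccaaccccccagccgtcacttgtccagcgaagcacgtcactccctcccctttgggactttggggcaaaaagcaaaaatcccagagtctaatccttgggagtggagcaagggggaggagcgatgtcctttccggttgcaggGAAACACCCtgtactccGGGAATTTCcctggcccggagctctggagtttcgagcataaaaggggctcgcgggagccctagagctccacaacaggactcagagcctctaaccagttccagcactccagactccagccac
Saa3, chr7:46715627-46715926, minus strand: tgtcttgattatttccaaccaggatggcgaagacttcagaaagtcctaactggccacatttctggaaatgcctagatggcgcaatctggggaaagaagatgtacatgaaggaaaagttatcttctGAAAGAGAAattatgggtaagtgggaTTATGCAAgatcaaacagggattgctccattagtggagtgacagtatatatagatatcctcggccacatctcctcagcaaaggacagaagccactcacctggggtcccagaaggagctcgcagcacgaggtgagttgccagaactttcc
G6pc, chr11:101367466-101367765, plus strand: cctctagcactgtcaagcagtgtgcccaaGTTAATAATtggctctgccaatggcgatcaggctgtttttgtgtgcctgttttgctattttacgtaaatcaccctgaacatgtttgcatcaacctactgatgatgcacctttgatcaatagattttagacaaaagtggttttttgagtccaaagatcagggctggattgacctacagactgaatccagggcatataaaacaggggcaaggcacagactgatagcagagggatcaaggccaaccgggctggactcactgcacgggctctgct

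The same search over all members found in the promoter table, 1116 higher and 3022 lower genes, gave shares to set beside those of all 27025 genes of the table. The interferon response letters were in 15.2% of higher genes, 7.05% of lower genes and 9.76% of all genes. The NF-kB letters were in 8.69% of higher genes, 4.10% of lower genes and 5.06% of all genes. The STAT letters were in 2.78% of higher genes, 1.03% of lower genes and 1.35% of all genes. The other motifs were rare: C/EBP letters stood in 1.61%, 1.09% and 0.918% of these groups, HNF1 letters in 0.896%, 0.728% and 0.940%, HNF4 letters in 0.269%, 0.860% and 0.555%, and D-box letters in 2.96%, 3.04% and 3.99%. Genes with several starts have more windows in which a motif can be found, and no test was made.

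The listed NF-kB pathway genes were all higher with LPS, and those of LPS sensing mostly so. Lists of genes by function were read against all listed genes, of which 27.5% were higher, with a median difference of -0.94. Among Toll-like receptors, LPS co-receptors and adaptors, 12 of 22 genes were listed, 9 of them higher and 3 lower. The lower ones, named after their values were seen, were Irak1, Tlr5 and Tlr8, and Tlr4 is not listed. Cd14, the LPS co-receptor, held 375, 336, 540.4, 291 and 411 TPM in WT LPS, WT LPS plus CTM, depleted WT LPS, non-depleted WT LPS and TG2-KO LPS liver, against 2.45 TPM in WT PBS and 2.57 TPM in TG2-KO PBS liver. No LPS liver came near a PBS liver for this gene. Tlr2, the receptor for bacterial lipoproteins, held 88.1 TPM in WT LPS and 0.69 TPM in WT PBS liver. Irak3, an inhibitory kinase-like protein of the pathway, held 42.95 TPM in WT LPS and 0.61 TPM in WT PBS liver. Lbp, which delivers LPS to CD14, held 305 TPM in WT LPS and 45.2 TPM in WT PBS liver. All 18 listed of 20 NF-kB subunits and feedback inhibitors were higher, with a median difference of 2.38 in the WT pair and 2.07 in the TG2-KO pair. Furthest apart was Tnfaip3, which encodes the ubiquitin-editing inhibitor A20, with 77.3 TPM in WT LPS and 0.44 TPM in WT PBS liver. Nfkbiz, a nuclear inhibitor-like co-activator, held 31.9 TPM in WT LPS and 0.72 TPM in WT PBS liver, and the subunit gene Relb held 11.4 TPM with LPS and 0.89 TPM with PBS.

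Listed chemokines and cytokines were higher with few exceptions. Of 13 CXC chemokines, 11 were listed, 10 higher and 1 lower. Cxcl10, an interferon-induced T cell chemoattractant, held 939.8 TPM in WT LPS and 5.99 TPM in WT PBS liver. Cxcl2, a neutrophil chemoattractant, held 92.6 TPM with LPS and 0.71 TPM with PBS. The exception was Cxcl12, a homeostatic chemokine of stromal and endothelial cells, with 20.5 TPM in WT LPS and 142 TPM in WT PBS liver, and 30.3 TPM in TG2-KO LPS and 110.1 TPM in TG2-KO PBS liver. Of 19 CC and other chemokines, 10 were listed, 9 higher and 1, Ccl27a, lower (named after its values were seen), with a median difference of 4.86 in the WT pair and 3.61 in the TG2-KO pair. Ccl2, which draws monocytes, held 219 TPM in WT LPS and 0.92 TPM in WT PBS liver. Ccl5 held 214 TPM in WT LPS and 1.72 TPM in WT PBS liver, and Ccl3 held 56.9 TPM with LPS and 0.12 TPM with PBS. Summed over the listed CXC chemokines, the level was 4415 TPM in WT LPS liver, 847 TPM in the depleted and 2299 TPM in the non-depleted WT LPS liver, and 169.8 TPM in WT PBS liver.

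All 17 listed of 27 interleukins, TNF family members, colony-stimulating factors and interferons were higher. Csf3, the granulocyte colony-stimulating factor, was listed at 0 in both PBS livers and stood at 38.1 TPM in WT LPS and 11.5 TPM in TG2-KO LPS liver. Il1b held 17.6 TPM in WT LPS and 0.12 TPM in WT PBS liver. Il33, an alarmin, held 18.01 TPM in WT LPS and 1.06 TPM in WT PBS liver. The level of the antagonist gene Il1rn was far above that of the agonist genes Il1b and Il1a (14.3 TPM in WT LPS and 1.15 TPM in WT PBS liver). Il6 and Tnf, added here after their values were seen because they are classical LPS cytokines, were low: Il6 was at 3.61 TPM in WT LPS liver and listed at 0 in WT PBS liver, and Tnf was at 4.97 TPM in WT LPS and 0.05 TPM in WT PBS liver. Of 25 cytokine receptors and decoy receptors, 16 were listed, 14 higher and 2 lower. Il1r1, the signalling interleukin 1 receptor, held 149.7 TPM in WT LPS and 7.41 TPM in WT PBS liver, but 115 TPM in TG2-KO LPS and 60.03 TPM in TG2-KO PBS liver. Among SOCS, JAK and STAT genes, 8 of 20 were listed, 7 higher and 1 lower. Socs1, an inhibitor of interferon signalling, held 166 TPM in WT LPS and 0.88 TPM in WT PBS liver, and Socs3, an inhibitor of interleukin 6 signalling, 145 TPM with LPS and 3.93 TPM with PBS. Stat3, the main acute phase transcription factor, held 147 TPM in WT LPS and 18.5 TPM in WT PBS liver.

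Interferon-stimulated genes were higher with LPS in both genotypes. All 31 listed of 35 type I interferon-stimulated antiviral genes were higher by at least 1 in the WT pair and all 31 also in the TG2-KO pair, where 14.8% of all listed genes were higher by at least 1. Their median difference was 3.54 in the WT pair and 3.91 in the TG2-KO pair. Isg15, a ubiquitin-like modifier, held 951, 848, 311, 654 and 757 TPM in WT LPS, WT LPS plus CTM, depleted WT LPS, non-depleted WT LPS and TG2-KO LPS liver, against 6.54 TPM in WT PBS and 5.84 TPM in TG2-KO PBS liver. The LPS livers were above the PBS livers without overlap. Rsad2, which encodes the antiviral enzyme viperin, held 537 TPM in WT LPS and 3.59 TPM in WT PBS liver, but only 117 TPM in the non-depleted WT LPS liver of the other extraction date. Ifit1, an RNA-binding antiviral protein, showed the same split of the WT LPS livers, with 442 TPM and 96.02 TPM. Usp18, which removes ISG15 and limits interferon signalling, held 336 TPM in WT LPS and 3.37 TPM in WT PBS liver. Of 18 guanylate-binding proteins and immunity-related GTPases, which are mostly interferon gamma targets, 17 were listed, 16 higher and 1 lower, with a median difference of 4.80 in the WT pair and 3.80 in the TG2-KO pair. Gbp6 held 354 TPM in WT LPS and 2.65 TPM in WT PBS liver, and Ifi47 503 TPM with LPS and 7.93 TPM with PBS.

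Listed genes of antigen presentation to CD8 T cells were mostly higher, while those of MHC class II were absent from the listing. Of 20 genes of MHC class I, peptide loading and the immunoproteasome, 15 were listed, 14 higher and 1 lower, with a median difference of 2.03 in the WT pair and 2.23 in the TG2-KO pair. Tap1, a subunit of the peptide transporter, held 107 TPM in WT LPS and 6.32 TPM in WT PBS liver. Psmb9, an immunoproteasome subunit, held 67.8 TPM in WT LPS and 6.71 TPM in WT PBS liver. None of 10 MHC class II genes and 1 of 31 proteasome subunits, Psma5, was listed. Of the interferon regulatory factors, 4 of 9 were listed, 3 higher and 1 lower. Irf7, an amplifier of the type I interferon response, held 353 TPM in WT LPS and 26.3 TPM in WT PBS liver, and Irf1, induced by interferon gamma, 68.2 TPM with LPS and 6.47 TPM with PBS.

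Acute phase proteins made up most of the TPM of the higher genes. Of 30 acute phase proteins raised in inflammation, 28 were listed, 27 higher and 1 lower, each by at least 1. The lower one was Hamp2, a paralog of the hepcidin gene Hamp named after its values were seen, with 296 TPM in WT LPS and 729.8 TPM in WT PBS liver. The 28 genes summed to 177199 TPM in WT LPS, 162613 TPM in WT LPS plus CTM, 233552 TPM in depleted WT LPS, 132343 TPM in non-depleted WT LPS and 151806 TPM in TG2-KO LPS liver, against 23630 TPM in WT PBS and 51693 TPM in TG2-KO PBS liver. The 6 listed genes with the most TPM in the WT LPS library were Hamp, Saa2, Mt2, Lcn2, Fgb and Mt1, which together held 104160 TPM with LPS and 13122 TPM with PBS. Hamp, which encodes the iron hormone hepcidin, held 27837 TPM in WT LPS and 10445 TPM in WT PBS liver, but 11169 TPM in the non-depleted WT LPS liver and 12618 TPM in TG2-KO PBS liver, so the LPS and PBS livers overlapped. Fgb, the fibrinogen beta chain, held 10767 TPM in WT LPS and 2111 TPM in WT PBS liver. Mt1 and Mt2 encode metallothioneins, which bind zinc. Mt2 held 18706 TPM in WT LPS and 254 TPM in WT PBS liver. Steap4, a metalloreductase of iron and copper, held 3309.6 TPM in WT LPS and 47.2 TPM in WT PBS liver. Saa1 and Saa2, and Mt1 and Mt2, are close paralogs, and how their shared reads were divided is not stated.

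The TG2-KO PBS liver was not at the WT PBS level for these proteins. It stood at least 1 above WT PBS for 20 of the 28 listed acute phase genes and at least 1 below for 2, while 131 of the 1459 higher genes stood at least 1 above WT PBS. Saa1 held 3845 TPM in WT LPS and 22.2 TPM in WT PBS liver, and 3437 TPM in TG2-KO LPS and 1172 TPM in TG2-KO PBS liver. Saa2 held 16724 TPM in TG2-KO LPS and 2469 TPM in TG2-KO PBS liver, against 18994 TPM in WT LPS and 68.9 TPM in WT PBS liver. Mt2 held 15058 TPM in TG2-KO LPS and 3210.5 TPM in TG2-KO PBS liver. Saa3 went the other way, with 6.46 TPM in TG2-KO PBS liver and 18.1 TPM in WT PBS liver. The median difference of the acute phase list was 2.79 in the WT pair and 1.42 in the TG2-KO pair, while the TG2-KO LPS liver lay close to the WT LPS liver, as the plot of this list by library shows. Whether genotype, the animal, the extraction date or handling moves with the TG2-KO PBS level was not tested.

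**Figure D3:**
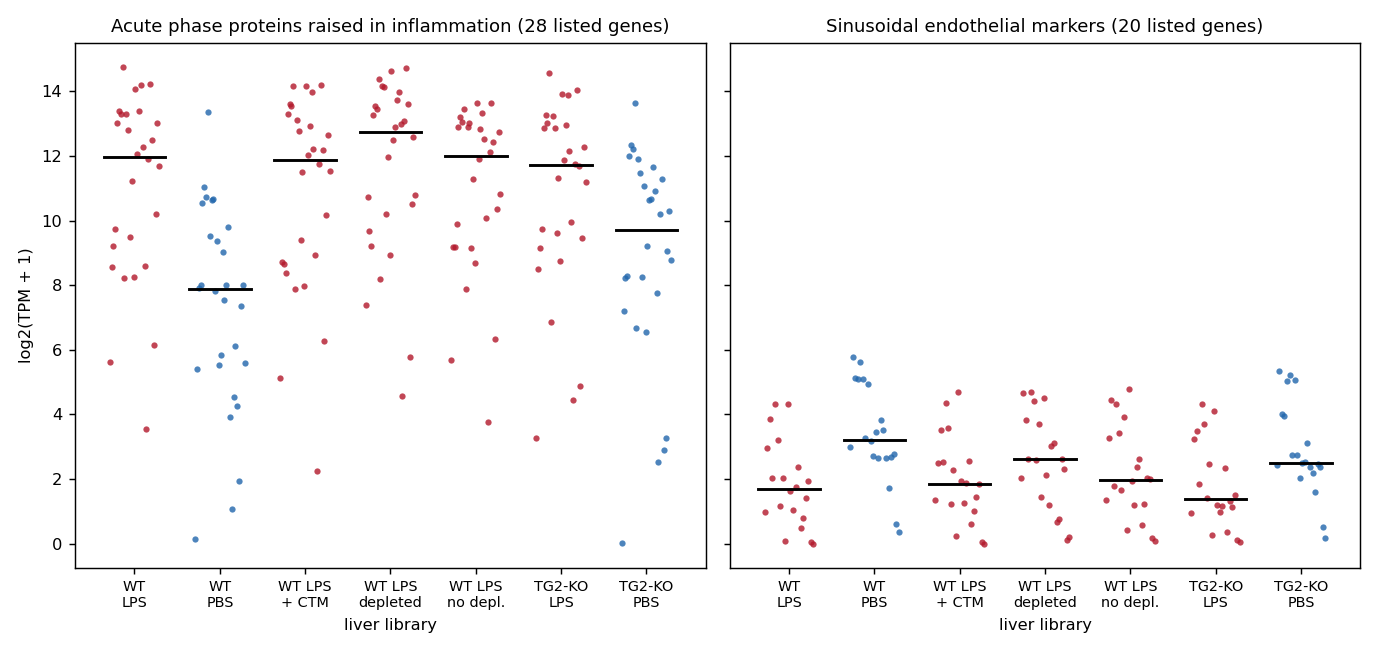
Each point is log2(TPM + 1) of 1 listed gene in 1 liver library, red for LPS and blue for PBS livers, and black bars are medians, for 28 acute phase genes on the left and 20 sinusoidal endothelial markers on the right. The acute phase median was between 11.71 and 12.73 in the 5 LPS livers, against 7.87 in WT PBS and 9.70 in TG2-KO PBS liver, and the endothelial median was between 1.37 and 2.61 in the LPS livers, against 3.22 in WT PBS and 2.51 in TG2-KO PBS liver.

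Beyond the acute phase proteins, most carrier and coagulation genes of hepatocytes were not listed, so they have no value here. Of 14 negative acute phase and carrier proteins 3 were listed, of 30 complement components and regulators 3, of 30 genes of coagulation, fibrinolysis and their inhibitors 10, and of 26 apolipoproteins, lipoprotein receptors and lipases 5. Rbp4, the retinol carrier of plasma, held 1421 TPM in WT LPS and 3259 TPM in WT PBS liver. Igfals, which stabilises insulin-like growth factors in plasma, held 14.4 TPM in WT LPS and 113 TPM in WT PBS liver. The remaining listed carrier gene, Serpina7, went the other way, with 23.7 TPM in WT LPS and 5.71 TPM in WT PBS liver. It held 80.3 TPM in TG2-KO LPS and 45.2 TPM in TG2-KO PBS liver. Of the coagulation list 4 were higher and 6 lower, with the urokinase receptor gene Plaur (28.9 TPM in WT LPS and 0.58 TPM in WT PBS liver) on the higher side. On the lower side were Serpind1, which encodes the thrombin inhibitor heparin cofactor II, with 111 TPM in WT LPS and 293 TPM in WT PBS liver, and Klkb1, plasma prekallikrein, with 12.3 TPM with LPS and 50.7 TPM with PBS. All 5 listed apolipoprotein and lipase genes were lower, among them Angptl8, a feeding-induced inhibitor of lipoprotein lipase, with 2.84 TPM in WT LPS and 42.1 TPM in WT PBS liver.

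Listed immediate early and growth arrest genes were mostly higher. All 20 listed of 25 AP-1, EGR, NR4A and other immediate early genes were higher, 16 of them by at least 1. Btg2, an anti-proliferative gene, held 380.3 TPM in WT LPS and 3.94 TPM in WT PBS liver. Egr1, a growth-factor-induced zinc finger factor, held 132 TPM in WT LPS and 2.19 TPM in WT PBS liver, and 84.6 TPM in TG2-KO LPS and 13.3 TPM in TG2-KO PBS liver. Junb held 219.7 TPM in WT LPS and 12.7 TPM in WT PBS liver. Of 22 p53 targets and growth arrest genes, 20 were listed, 18 higher and 2 lower. Cdkn1a, which encodes the cell cycle inhibitor p21, held 278, 251, 104, 273 and 148 TPM in WT LPS, WT LPS plus CTM, depleted WT LPS, non-depleted WT LPS and TG2-KO LPS liver, against 1.80 TPM in WT PBS and 2.27 TPM in TG2-KO PBS liver. The LPS and PBS livers did not overlap. Gadd45a held 61.8 TPM in WT LPS and 2.83 TPM in WT PBS liver. Where 72.5% of all listed genes were lower, 12 of 25 S phase genes were listed, 2 higher and 10 lower. Among them Tk1, a thymidine kinase, held 1.73 TPM in WT LPS and 19.7 TPM in WT PBS liver, and Mcm10, a replication factor, 2.06 TPM with LPS and 20.9 TPM with PBS.

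Listed genes of glucose handling were mostly lower. Beside this list and the metabolic lists below, 72.5% of all listed genes were lower, with a median difference of -0.94. Of 22 genes of gluconeogenesis and glycogen, 12 were listed, 2 higher and 10 lower, with a median difference of -1.66 in the WT pair and -1.30 in the TG2-KO pair. Slc2a2, the glucose transporter GLUT2, held 15.3 TPM in WT LPS and 75.6 TPM in WT PBS liver, and Pklr, liver pyruvate kinase, 33.99 TPM with LPS and 112 TPM with PBS. Pfkfb3, an activator of glycolysis, was on the other side with 108 TPM in WT LPS and 7.84 TPM in WT PBS liver, while the liver isoform gene Pfkfb1 held 4.92 TPM with LPS and 17.3 TPM with PBS.

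Listed genes of lipid breakdown and of lipid synthesis were mostly lower. All 21 listed of 40 genes of fatty acid oxidation and ketone synthesis were lower by at least 1, with a median difference of -1.39 in the WT pair and -1.05 in the TG2-KO pair, where 17.1% of all listed genes were lower by at least 1 and 13 of these 21 were. Acsl1, which activates long-chain fatty acids, held 57.3, 42.5, 74.03, 51.8 and 91.2 TPM in WT LPS, WT LPS plus CTM, depleted WT LPS, non-depleted WT LPS and TG2-KO LPS liver, against 402 TPM in WT PBS and 243 TPM in TG2-KO PBS liver. All 5 LPS livers were below both PBS livers for Acsl1. Ppara, the nuclear receptor that drives this pathway in fasting, held 10.9 TPM in WT LPS and 38.7 TPM in WT PBS liver, and 8.44 TPM in TG2-KO LPS and 42.3 TPM in TG2-KO PBS liver. Of 33 genes of lipogenesis and lipid droplets, 21 were listed, 2 higher and 19 lower, with a median difference of -1.71 in the WT pair and -1.19 in the TG2-KO pair. The 2 higher ones, named after their values were seen, were the lipid droplet genes Plin2 and Cidec. Plin2 held 248 TPM in WT LPS and 122 TPM in WT PBS liver, and Cidec 6.38 TPM with LPS and 0.3 TPM with PBS. Srebf1, the sterol-regulated factor that drives fatty acid synthesis, held 7.59 TPM in WT LPS and 127 TPM in WT PBS liver, and 26.6 TPM in TG2-KO LPS and 131 TPM in TG2-KO PBS liver. Gpam, the first step of triglyceride synthesis, held 1.39 TPM in WT LPS and 23.2 TPM in WT PBS liver. Fads2, a fatty acid desaturase, held 90.97 TPM in WT LPS and 530.3 TPM in WT PBS liver. Of 24 cholesterol synthesis genes 11 were listed, 1 higher and 10 lower.

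Listed bile acid genes of synthesis and of transport were mostly lower. Of 31 genes of bile acid synthesis, conjugation and transport, 18 were listed, 2 higher and 16 lower, with a median difference of -1.65 in the WT pair and -0.89 in the TG2-KO pair. Besides Cyp7a1, Cyp8b1, the enzyme of cholic acid synthesis, held 21.4 TPM in WT LPS and 115 TPM in WT PBS liver. Abcc2, which exports bilirubin conjugates into bile, held 9.78 TPM in WT LPS and 55.2 TPM in WT PBS liver. Abcg8, a subunit of the canalicular sterol transporter, held 6.31 TPM in WT LPS and 47.4 TPM in WT PBS liver. Nr0b2, a repressor of Cyp7a1, was itself at 0.67 TPM in WT LPS and 34.3 TPM in WT PBS liver, so the repressor and its target were lower together. The 2 higher genes of the list, named after their values were seen, were the bile acid conjugating enzyme gene Baat and the basolateral exporter subunit gene Slc51b.

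Listed detoxification and amino acid genes were also mostly lower, with list medians between -1.07 and -1.43 in the WT pair. Of all listed genes 72.5% were lower, with a median difference of -0.94. The medians of glutathione S-transferases (-1.07), UDP-glucuronosyltransferases and sulfotransferases (-1.13) and P450 families 1 to 3 (-1.14) lay close to it. Of 50 cytochrome P450 genes of families 1 to 3, 13 were listed, 2 higher and 11 lower, and of 25 fatty acid and sterol P450 genes, 16 were listed, 1 higher and 15 lower. Cyp2e1, which oxidises ethanol and paracetamol, held 2632 TPM in WT LPS and 5513 TPM in WT PBS liver, and Cyp4a10, a fatty acid hydroxylase, 134 TPM with LPS and 367 TPM with PBS. Of 28 UDP-glucuronosyltransferases and sulfotransferases, 11 were listed, 1 higher and 10 lower, and of 22 glutathione S-transferases 6, 1 higher and 5 lower. Ugt2b5 held 184 TPM in WT LPS and 428 TPM in WT PBS liver. Several of these families hold close paralogs whose shared reads may be divided between them. Of 48 genes of the urea cycle and amino acid breakdown, 26 were listed, 4 higher and 22 lower. Aldh8a1, which acts in tryptophan breakdown, held 21.3 TPM in WT LPS and 257 TPM in WT PBS liver. Hal, which breaks down histidine, held 19.9 TPM in WT LPS and 77.8 TPM in WT PBS liver. Sds, serine dehydratase, was among the 4 higher genes, with 440.2 TPM in WT LPS and 180.3 TPM in WT PBS liver.

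Most listed transcription factors that keep hepatocytes differentiated were lower. Of 34 hepatocyte transcription factors and nuclear receptors, 20 were listed, 3 higher and 17 lower, with a median difference of -1.87 in the WT pair and -1.41 in the TG2-KO pair. Nr1i3, the xenobiotic sensor CAR, held 4.92, 6.04, 6.53, 9.50 and 9.16 TPM in WT LPS, WT LPS plus CTM, depleted WT LPS, non-depleted WT LPS and TG2-KO LPS liver, against 57.8 TPM in WT PBS and 40.4 TPM in TG2-KO PBS liver. The LPS livers were all below the PBS livers. Nr1i2, the sensor PXR, held 2.77 TPM in WT LPS and 32.9 TPM in WT PBS liver. The 3 higher genes were Cebpd, Cebpb and Xbp1, of which Cebpb and Xbp1 are named after their values were seen. Cebpd and Cebpb encode C/EBP factors of the acute phase response, and Cebpd held 37.7 TPM in WT LPS and 3.86 TPM in WT PBS liver. Among circadian clock and output genes 12 of 19 were listed, 4 higher and 8 lower. The PAR-bZIP output genes were lower together: Dbp held 3.58 TPM in WT LPS and 101 TPM in WT PBS liver, Tef 8.19 TPM with LPS and 49.01 TPM with PBS, and Hlf 1.51 TPM with LPS and 14.5 TPM with PBS. Nfil3, which represses at the same DNA site, was on the other side with 41.7 TPM in WT LPS and 8.73 TPM in WT PBS liver. The hour of day at which livers were taken is not given in the labels.

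Chaperone genes of the endoplasmic reticulum were higher where listed, and heat shock genes were on both sides. All 8 listed of 25 endoplasmic reticulum chaperones and unfolded protein response genes were higher, with a median difference of 1.76 in the WT pair and 0.39 in the TG2-KO pair. Hspa5, which encodes the chaperone BiP, held 701 TPM in WT LPS and 213 TPM in WT PBS liver, and 472 TPM in TG2-KO LPS and 301 TPM in TG2-KO PBS liver. Dnajb9, a co-chaperone of BiP, held 159 TPM in WT LPS and 43.6 TPM in WT PBS liver, but 50.2 TPM in TG2-KO LPS and 96.8 TPM in TG2-KO PBS liver, on opposite sides in the 2 genotypes. Of 20 heat shock genes, which act in the cytosol, 10 were listed, 2 higher and 8 lower, close to the 72.5% lower among all listed genes, with a median difference of -1.10 in the WT pair and -0.28 in the TG2-KO pair. Hsp90ab1, a cytosolic HSP90, held 246 TPM in WT LPS and 590.2 TPM in WT PBS liver, but 424 TPM in TG2-KO LPS and 306 TPM in TG2-KO PBS liver, again on opposite sides in the 2 genotypes. Hspb8, a small heat shock protein of chaperone-assisted autophagy, held 325 TPM in WT LPS and 79.8 TPM in WT PBS liver. Of 29 genes of the ATF4 and amino acid response, 18 were listed, 17 higher and 1 lower. Ddit4, an inhibitor of mTORC1, held 34.1 TPM in WT LPS and 3.52 TPM in WT PBS liver.

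Iron and haem genes lay on both sides. Of 25 metallothionein, zinc and iron genes, 16 were listed, 10 higher and 6 lower. Hmox1, which breaks down haem, held 256 TPM in WT LPS and 19.4 TPM in WT PBS liver. Slc40a1, the iron exporter ferroportin, held 0.53 TPM in WT LPS and 23.7 TPM in WT PBS liver, while Hamp, whose product removes ferroportin from the membrane, was higher. Ftl1, the ferritin light chain, was one of the 6 listed genes with the most TPM in PBS liver and held 1819.5 TPM in WT LPS and 3916 TPM in WT PBS liver. The globin genes, which are erythroid markers, were also higher with LPS in the WT pair. How much blood was left in each liver was not measured. Erythroid and platelet markers summed to 6240 TPM in WT LPS and 1637 TPM in WT PBS liver, and to 2512 TPM in TG2-KO LPS and 241.2 TPM in TG2-KO PBS liver, but to 841.9 TPM in the depleted and 1353 TPM in the non-depleted WT LPS liver, both under the WT PBS level.

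Markers of blood and liver cell types were also among the listed genes. All 16 listed of 23 neutrophil markers were higher with LPS in both pairs, 8 of them listed at 0 in WT PBS liver, and they summed to 130.7 TPM in WT LPS and 4.08 TPM in WT PBS liver, and to 207.7 TPM in TG2-KO LPS and 35.3 TPM in TG2-KO PBS liver. S100a9, a calcium-binding protein abundant in neutrophils, held 34.8 TPM in WT LPS and 0.22 TPM in WT PBS liver, and the granule protein gene Ngp held 14.7 TPM with LPS and was listed at 0 with PBS. The neutrophil markers Ly6g, Mpo and Elane are among those not listed. Of 22 monocyte and macrophage markers, 12 were listed, 8 higher and 4 lower. Of 19 Kupffer cell markers, 14 were listed, 4 higher and 10 lower, a share of lower genes close to the 72.5% of all listed genes. Their sum was 183.1 TPM in WT LPS, 195.5 TPM in WT LPS plus CTM, 160.1 TPM in depleted WT LPS, 299.8 TPM in non-depleted WT LPS and 193.2 TPM in TG2-KO LPS liver, against 249.4 TPM in WT PBS and 233.8 TPM in TG2-KO PBS liver, so the non-depleted LPS liver was above both PBS livers and the other LPS livers below them. The sum does not stand for each marker. In the depleted liver C1qa and C1qc held 2.95 and 2.24 TPM, against 21.35 and 32.9 TPM in the non-depleted liver of its extraction date. The WT LPS liver, of another date, held 10.3 and 17.0 TPM. Slc40a1, also on the list, held 2.80 TPM in the depleted liver, below the non-depleted but above the WT LPS liver (0.53 TPM). Nr1h3, another marker of the list, was higher in the depleted (47.96 TPM) than in the non-depleted liver (36.7 TPM). Among the Kupffer cell markers Marco, a scavenger receptor, held 13.6 TPM in WT LPS and 2.50 TPM in WT PBS liver. Cd5l, a secreted scavenger protein, held 4.65 TPM with LPS and 18.8 TPM with PBS. Csf1r, the receptor that keeps macrophages alive, held 2.02 TPM in WT LPS and 11.8 TPM in WT PBS liver.

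Sinusoidal endothelial markers were mostly lower with LPS in both pairs. Of 21 such markers, 20 were listed, 1 higher and 19 lower, where 72.5% of all listed genes were lower. All 20 were on the same side in the TG2-KO pair, close to the 92.1% of all listed genes that were. Their sum was 90.7 TPM in WT LPS, 99.9 TPM in WT LPS plus CTM, 161.9 TPM in depleted WT LPS, 127.0 TPM in non-depleted WT LPS and 88.9 TPM in TG2-KO LPS liver, against 320.1 TPM in WT PBS and 225.2 TPM in TG2-KO PBS liver. Gpr182, an atypical chemokine receptor of these cells, held 3.09 TPM in WT LPS and 29.97 TPM in WT PBS liver. Ehd3 held 3.10 TPM in WT LPS and 33.4 TPM in WT PBS liver, and the lectin gene Clec4g 6.87 TPM with LPS and 53.8 TPM with PBS. The exception, Lyve1, a hyaluronan receptor named after its values were seen, held 19.1 TPM in WT LPS and 5.58 TPM in WT PBS liver, and 16.1 TPM in TG2-KO LPS and 3.06 TPM in TG2-KO PBS liver. Of 20 genes of endothelial activation and adhesion, 15 were listed, 10 higher and 5 lower. Icam1, which holds leukocytes to the vessel wall, held 117 TPM in WT LPS and 4.22 TPM in WT PBS liver, and the platelet and endothelial selectin gene Selp 33.6 TPM with LPS and 0.57 TPM with PBS. All 9 listed of 19 stellate cell and fibroblast markers were lower in the WT pair, where 72.5% of all listed genes were, and 8 also in the TG2-KO pair. They summed to 18.4 TPM in WT LPS and 69.0 TPM in WT PBS liver. In the depleted WT LPS liver the sum was 61.4 TPM, above the 50.15 TPM of TG2-KO PBS liver. The part of these markers in the other gene groups was not tested.

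Over the 59 gene lists, 56 had at least 3 listed members, and 28 of these had a median difference above 0 and 28 below. Some lists share genes. The bars of all lists show how many members of each were higher, lower or not listed.

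The TG2-KO pair shares no library with the WT pair and was used to ask whether the listed genes lay on the same side of its own PBS liver. Of the 1459 higher genes, 1356 (92.9%) were higher in the TG2-KO LPS than in the TG2-KO PBS liver, and 772 (52.9%) by at least 1, where 14.8% of all listed genes were higher by at least 1. Of the 3839 lower genes, 3524 (91.8%) were lower, and 904 (23.5%) by at least 1, where 17.1% of all listed genes were lower by at least 1. With this pair scaled to equal TPM of the genes not listed, the counts of at least 1 were 886 higher and 638 lower genes. By at least 1 on the opposite side were 4 higher and 12 lower genes. The median differences were 1.44 for higher and -1.14 for lower genes in the WT pair, against 1.05 and -0.62 in the TG2-KO pair. The genes were selected on the WT pair, which by itself makes the WT differences the larger. Across genes, which are not independent replicates, the differences of the 2 pairs correlated at a Pearson r of 0.83 (Spearman rho 0.77) within the higher genes and 0.58 (rho 0.53) within the lower genes. Genes far below the line of equal differences included Saa1 (7.38 in the WT pair and 1.55 in the TG2-KO pair) and Mt2 (6.20 and 2.23), for which the 2 PBS livers differ.

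**Figure D4:**
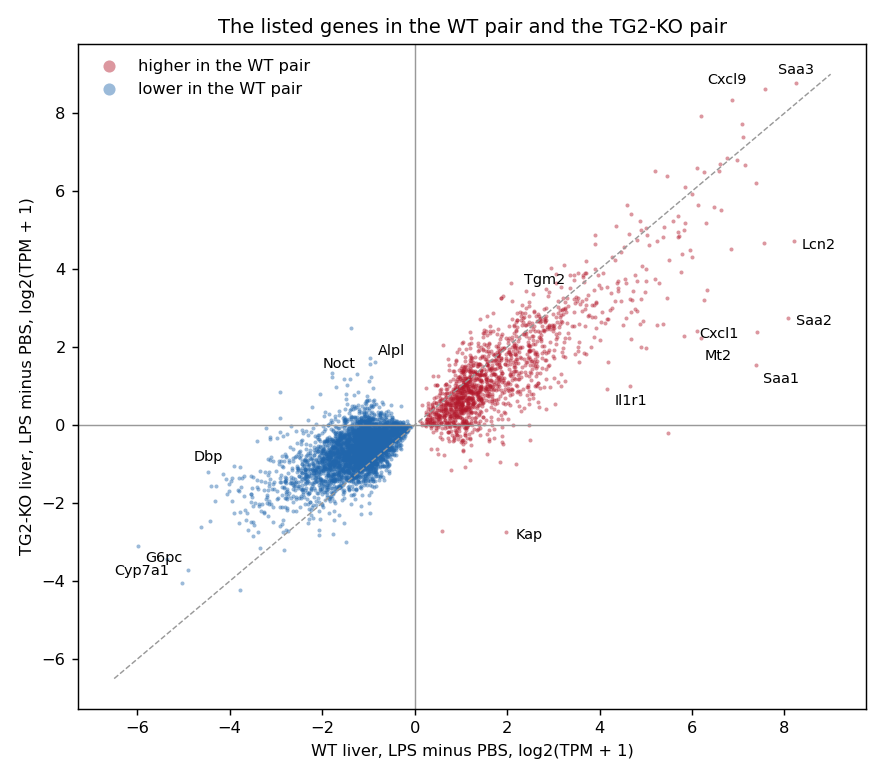
Each point is 1 of the 5298 listed genes, with the difference of log2(TPM + 1), LPS minus PBS, of the WT pair on the horizontal axis and of the TG2-KO pair on the vertical axis, and the dashed line marks equal differences. Most points lie in the quadrants of equal sign, where 92.1% of the listed genes fall, and the gap at 0 on the horizontal axis is made by the listing.

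The other WT liver given LPS without depletion had another extraction date and no labelled dose. It lay on the LPS side of the same WT PBS liver for 1437 of the higher (98.5%) and 3734 of the lower genes (97.3%), by at least 1 for 938 and 1351. Because the PBS liver is shared with the WT pair, this count cannot be read as a second response. The median absolute difference was 1.20 within the WT pair, against 0.37 between the 2 WT LPS livers and 0.31 between the 2 PBS livers. The listing kept only genes at least 2-fold apart in the WT pair, which by itself makes the first value the largest. These values therefore cannot set the LPS difference against the spread between livers. Genes at least 1 apart numbered 398 between the 2 WT LPS livers and 408 between the 2 PBS livers. A stricter count used only libraries that the listing did not: in all 4 other LPS livers, treated with CTM, depleted, non-depleted or TG2-KO, 1173 of the higher genes (80.4%) were above TG2-KO PBS, where 23.1% of all listed genes were, and 2728 of the lower genes (71.1%) were below it, where 51.7% of all listed genes were.

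WT RAW264.7 cells given 1 µg/mL LPS were used to see which listed genes also differ in a macrophage-like line without liver cells. A gene was counted where each of the 2 LPS libraries was at least 1 above, or below, each of the 2 PBS libraries on the log2(TPM + 1) scale, a description without a test. Of 1417 higher liver genes found in the cell values, 280 (19.8%) were higher in cells at 24 h, where 2.08% of all genes of the table were, and 258 (18.2%) at 12 h, where 1.82% were. Of 3809 lower liver genes found, 367 (9.64%) were lower at 24 h, where 2.93% of all genes were, and 642 (16.9%) at 12 h, where 4.6% were. With median-of-ratios scaling of the cell libraries these counts were 332 higher and 210 lower genes at 24 h, and 356 and 367 at 12 h. Most genes of the cell table are at low or no level, so the shares were also taken over genes of at least 1 TPM. There, 27.3% of higher liver genes were higher at 24 h, against 6.47% of all such genes, and 25.2% against 5.71% at 12 h. Of lower liver genes 13.1% were lower at 24 h, against 9.26% of all such genes, and 23.5% against 14.5% at 12 h.

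Gene groups differed in how many of their higher liver genes were also higher in cells. Of 31 listed type I interferon-stimulated genes, 25 were higher in cells at 24 h and 16 at 12 h. Of 18 NF-kB genes, 8 were higher at 24 h and 12 at 12 h, and of 17 interleukins and related cytokines 11 and 12. Ccl5 held 559 and 614 TPM in the LPS libraries of cells at 24 h, against 21.2 and 20.5 TPM with PBS. Il1rn held 395 and 418 TPM with LPS at 24 h, against 13.9 and 18.6 TPM with PBS. Acod1, which makes itaconate, held 1650.2 and 1688 TPM with LPS at 24 h, against 63.4 and 72.8 TPM with PBS, while in liver it held 24.9 TPM in WT LPS and 0.11 TPM in WT PBS. Of the 27 higher acute phase genes, 20 were under 1 TPM in cells, and 3 were higher at 24 h and 5 at 12 h. Of the 16 higher guanylate-binding proteins and GTPases, 1 was higher in cells at 24 h and 3 at 12 h. Gbp2 held 0.54 and 0.89 TPM with LPS at 24 h, against 0.25 and 0.33 TPM with PBS, and 6.65 and 7.97 TPM in the LPS libraries at 12 h, against 1.38 and 1.72 TPM in the PBS libraries. Of the 17 lower hepatocyte factor genes, 13 were under 1 TPM in cells, as were 14 of the 19 lower sinusoidal endothelial markers.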

How the data were processed

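RNA was sequenced from mouse liver (7 libraries, 1 per group) and RAW264.7 cells (14 libraries, 2 per group), from libraries made with a stranded mRNA kit, per the labels' protocols. The authors deposited TPM by gene symbol. Per the submitters' processing notes, Salmon was used, with mm10 and GRCm38 as builds. Versions, annotation, filters and read counts are not given in the sources used here, so depth is unknown. Liver TPM, rounded to 2 decimals, cover only genes at least 2-fold apart between WT LPS and WT PBS. Each sample column was mapped by its label. At 24 h the LPS columns carry other replicate numbers than the labels and were assigned to their group only. The labels do not say whether the 2 cell libraries of a group are separate cultures.

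Differences are of log2(TPM + 1), LPS minus PBS, computed with pandas 2.3.3 and numpy 2.4.6 in Python 3.11.15, correlations with scipy 1.17.1 and figures with matplotlib 3.10.9. Nothing was tested, since liver has 1 library per group, and counts use a difference of at least 1. The counting was tested on simulated data. Members and the 59 gene lists were chosen with earlier results of these data known. The naming rule takes Tgm2 and Vim, the 10 highest and 10 lowest differences among genes with at least 10 TPM in the higher library, the 6 genes with the most TPM in each library, up to 6 members of each list with the largest difference and at least 10 TPM, the 8 genes most opposite in TG2-KO and the 8 most apart between the 2 WT LPS livers. Predicted and clone names are skipped. The text gives part of the genes so named, and some are not reported here. Promoters come from RefSeq (GRCm38.p6), and 4138 of the 5298 genes matched by symbol. Alternatives were a pseudocount of 0.1 TPM, filters at 1 and 10 TPM, a minimum difference of 2, scaling to equal TPM of genes not listed, median-of-ratios scaling and leaving out each cell library.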

Additional observations from a re-analysis of the deposited data

Results flagged for a closer look

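Among genes with at least 10 TPM in the higher WT library, 6 lay at least 1 on one side in the TG2-KO pair and at least 1 on the other side in the WT pair. With 1 library per group the difference between genotypes was not tested. Kap, kidney androgen-regulated protein, differed by -2.73 in the TG2-KO pair and by 1.98 in the WT pair. It was listed at 0 in TG2-KO LPS liver and stood at 5.63 TPM in TG2-KO PBS liver, with 35.1 TPM in WT LPS and 8.13 TPM in WT PBS liver. Baiap2, an adaptor of actin remodelling, differed by 1.33 in the TG2-KO pair and by -1.78 in the WT pair. Noct, the circadian phosphatase nocturnin, differed by 1.19 in the TG2-KO pair and by -1.52 in the WT pair, with 80.1 TPM in TG2-KO LPS and 34.5 TPM in TG2-KO PBS liver, and 8.72 TPM in WT LPS and 26.9 TPM in WT PBS liver. The histone gene Hist1h2bc differed by 1.18 in the TG2-KO pair and by -1.40 in the WT pair. Gmppb, which makes GDP-mannose, differed by -1.07 in the TG2-KO pair and by 1.09 in the WT pair. Anp32a, a nuclear phosphoprotein, differed by 1.02 in the TG2-KO pair and by -1.46 in the WT pair. For Baiap2, Hist1h2bc and Anp32a the TG2-KO PBS liver held less than the WT PBS liver: 5.65, 101 and 24.03 TPM, against 16.8, 299.9 and 68.9 TPM. These are 6 of 5298 listed genes. With low genes counted and no limit set on the WT difference, 4 higher and 12 lower genes lay at least 1 on the opposite side in the TG2-KO pair.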

How the results depend on the processing

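The direction of a named gene in the WT pair could not turn under these alternatives, since each gene was listed for a ratio of at least 2 and the scaling moves it by 0.28 on the log2 scale, so that 0 of 287 turned says nothing of stability. Counts of lower genes at a difference of at least 1 depended on the pseudocount: with 0.1 TPM they were 3728 in the WT pair and 1765 in the TG2-KO pair. With at least 10 TPM in the higher library the counts were 724 higher and 1246 lower genes in the WT pair, 450 lower genes in the TG2-KO pair, 730 and 1343 in the non-depleted WT LPS liver, and 627 and 1084 with all 4 other LPS livers on the LPS side. At a minimum difference of 2 they were 489 and 450 in the WT pair and 349 and 78 in the TG2-KO pair. Median-of-ratios scaling of the cell libraries, which moves all genes by 0.25 at 24 h and 0.37 at 12 h on the log2 scale, left 210 lower liver genes lower at 24 h and 367 at 12 h, beside 332 and 356 higher liver genes that were higher. Among genes with at least 10 TPM the interferon response letters were in 5.83% and the D-box letters in 4.04% of lower genes. Fewer genes enter each filtered count, and otherwise the cause was not tested. Leaving out 1 cell library gave 289 to 309 genes higher in both liver and cells at 24 h and 267 to 273 at 12 h, and 413 to 508 and 707 to 757 lower in both. Scaling to equal TPM of genes not listed, for the same side in the TG2-KO pair, was chosen after seeing the data and gave 1392 higher and 3353 lower genes. The other 61 summary values kept their direction within 1.5 times. No paired analysis was possible because no result here comes from a test and liver groups have 1 library each. TPM keep no depth, so a gene listed at 0 may be a failed estimate, and 663 listed genes are under 1 TPM in both libraries of the pair.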

Other observations

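Secreted stress hormones of the liver split. Of 20 hepatokines and stress hormones 12 were listed, 6 higher and 6 lower with LPS in the WT pair. All 12 lay on the same side in the TG2-KO pair, close to the 92.1% of all listed genes that did. Igfbp1, which binds insulin-like growth factors, held 2743 TPM in WT LPS, 844 TPM in non-depleted WT LPS and 1648 TPM in TG2-KO LPS liver, against 61.1 TPM in WT PBS and 18.6 TPM in TG2-KO PBS liver. Gdf15, a stress hormone that lowers appetite, held 83.8 TPM in WT LPS and 4.70 TPM in WT PBS liver. Fst, which encodes the activin antagonist follistatin, held 79.0 TPM in WT LPS and 1.11 TPM in WT PBS liver. The activin subunit gene Inhbe held 0.25 TPM in WT LPS and 16.2 TPM in WT PBS liver, while its paralog Inhbb held 10.3 TPM with LPS and 0.49 TPM with PBS. Of 25 cell death and BCL-2 family genes 14 were listed, 11 higher and 3 lower. Mlkl, the effector of necroptosis, held 43.9 TPM in WT LPS and 1.76 TPM in WT PBS liver, Casp4, the mouse sensor of cytosolic LPS, 14.7 TPM with LPS and 0.86 TPM with PBS, and Gsdmd, the pore protein it cuts, 43.2 TPM with LPS and 12.4 TPM with PBS. Of 27 glycolysis and hypoxia genes 14 were listed, 11 higher and 3 lower, among them Ldha with 895 TPM in WT LPS and 301 TPM in WT PBS liver, and Hif1a with 58.9 TPM with LPS and 11.6 TPM with PBS. Sox9, a cholangiocyte factor, held 31.1 TPM in WT LPS and 1.51 TPM in WT PBS liver, and 45.5 TPM in TG2-KO LPS and 2.11 TPM in TG2-KO PBS liver, while of the 6 listed cholangiocyte markers 2 were higher and 4 lower. Timp1, an inhibitor of metalloproteinases, held 37.5 TPM in WT LPS and 0.3 TPM in WT PBS liver, and Mmp15, a membrane metalloproteinase, 0.54 TPM with LPS and 23.03 TPM with PBS.

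The 2 WT livers given LPS differed most, among genes with at least 10 TPM, in Hhex, Glyctk, Hba-a2, Hba-a1, Rgs16, Stbd1, Ifit1 and Rsad2. Hhex held 0.54 TPM in the liver of the pair and 10.8 TPM in the non-depleted liver of the other date. Rgs16, a regulator of G protein signalling with a daily rhythm in liver, held 64.8 TPM and 12.7 TPM in these livers, against 14.3 TPM in WT PBS liver, so the non-depleted liver was on the PBS side. Stbd1, a glycogen-binding protein, held 1.63 TPM and 11.04 TPM, against 28.7 TPM in WT PBS liver. The dose of the non-depleted liver is not labelled and its extraction date differs, so dose, date and animal cannot be told apart.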
